A study of Arvicanthis niloticus with 59 samples.

Results

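The keratin family was followed across the tissues of Arvicanthis niloticus, the Nile grass rat, a rodent that is active by day. Its members were taken as every gene whose symbol in the deposited tables is Krt followed by a number and at most a single letter, which excludes the keratin-associated proteins. This gave 54 of the 18970 genes, 28 of them type I keratins, 25 type II keratins and 1, Krt88, placed in neither type here. RNA with poly(A) tails was sequenced from 59 biopsies of healthy, untreated tissue, taken at 48 sites in 22 organs of 4 animals named T3F, T173F, T426 and T424. The labels give neither age nor strain, and no animal received a treatment. The stratified sites compared were cornea, esophageal junction (a site whose label names Barrett's esophagus although its treatment label reads healthy) and non-glandular stomach, all of animal T3F. The intestinal sites were duodenum (T3F and T426), jejunum, ileum and colon (T3F), and cecum and rectum (T173F). The 10 sites sampled in a pair of animals were duodenum, retina, hippocampus, femur, liver, skeletal muscle and sciatic nerve (T3F and T426), renal pelvis (T173F and T426), and ovary and pancreas (T173F and T3F).

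Keratins are the intermediate filament proteins of epithelial cells. A filament is built from pairs in which a type I chain joins a type II chain, so a cell that makes filaments needs members of both types. Simple epithelia are known for Krt8 with Krt18, Krt19 or Krt20. The basal layer of stratified epithelia uses Krt5 with Krt14 or Krt15, the layers above it switch to pairs such as Krt1 with Krt10 or Krt4 with Krt13, and hair follicles carry sets of their own. In whole tissue, fewer cells of a type and less RNA per cell cannot be told apart.

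Levels are given as TPM, a share of all transcripts that divides the counts of a gene by its length in the authors' reference. That length differed widely within the family. Relative to Krt8, the length implied by counts and TPM was 0.0141 for Krt86, 0.0151 for Krt27 and 0.0282 for Krt88, against 0.534 for Krt18 and 1.76 for Krt73, in the 52 keratins with enough counts to measure it. A short reference turns few counts into a high TPM. Expected counts are therefore printed beside many levels of these genes, and TPM are best compared between libraries within a gene. Near-identical copies (Krt6a and Krt6b, Krt33a and Krt33b, Krt81, Krt83, Krt86 and Krt87, Krt14, Krt16, Krt17 and Krt42) may share reads, and their split is uncertain.

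Libraries held 678819 (testis) to 4.13e7 expected counts, with a median of 1.64e7. The 8 libraries of T426 held 1.69e6 to 3.83e6 and the 38 of T3F 1.27e7 to 4.13e7. Some libraries went against their labels. The library labelled lung T3F had a summed level of 4 hepatocyte genes of 88890 TPM, above the 67438 TPM of liver T426, whereas the library labelled liver T3F had 29421 TPM of 4 alveolar genes and 26804 TPM of 4 airway genes. Germ cell genes summed to 32848 TPM in retina T426, 16108 TPM in hippocampus T426 and 6568 TPM in femur T426, against 35225 TPM in testis and a median of 0 over all libraries. Pancreas T173F had 423.99 TPM of acinar genes, against 131046 TPM in pancreas T3F, and cornea held 4792 TPM of the hepatocyte genes. Acinar genes also summed to 17190 TPM in sciatic nerve T426, 4727 TPM in skeletal muscle T3F and 3755 TPM in colon. Airway genes summed to 4738 TPM in rectum, 4022 TPM in colon and 3838 TPM in femur T3F.

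Each of the 54 keratins reached 1 TPM in some library, 38 reached 100 TPM and 15 reached 1000 TPM. Few of them were widespread. Only 5 reached 1 TPM in at least 45 of the 59 libraries, namely Krt18 in 59, Krt8 in 58, Krt10 in 52, Krt222 in 48 and Krt19 in 46, and 21 did so in at most 10 libraries. A library held 3 to 40 keratins at 1 TPM, with a median of 14. The summed keratin level ran from 9.74 TPM in bone marrow to 91904 TPM in cornea, with a median of 317 TPM. Cornea, non-glandular stomach and esophageal junction thus devoted 9.19%, 8.97% and 6.82% of all TPM to keratins, or 6.60%, 6.02% and 4.01% of all counts. Mesentery T173F was the highest library for 12 keratins and cornea for 11, more than any other library.

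**Figure D1:**
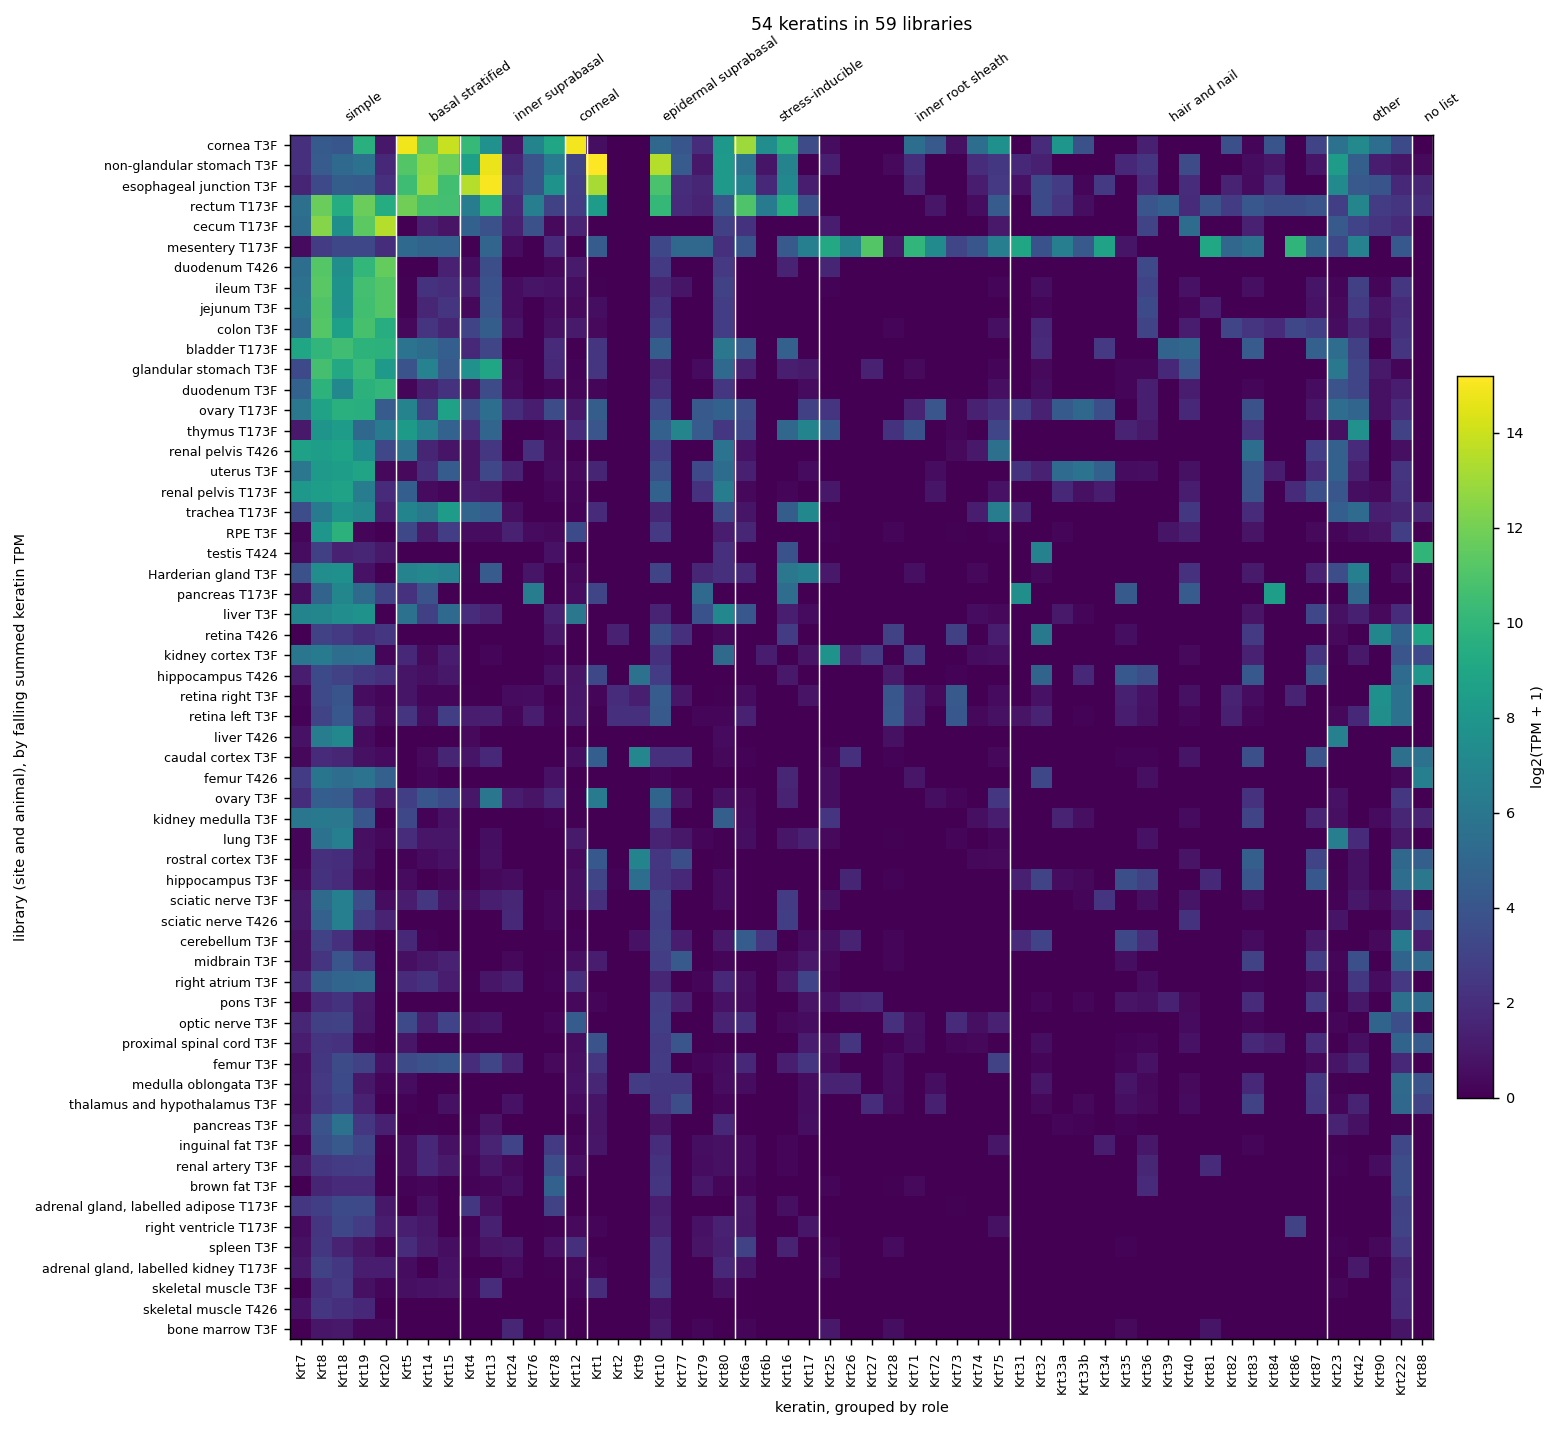
Level of each of the 54 keratins (columns, grouped by role) in each of the 59 libraries (lines, by falling summed keratin TPM), as log2(TPM + 1). The upper lines hold stratified and intestinal sites with different keratins, mesentery T173F stands out in the inner root sheath and hair columns, and Krt8 and Krt18 are present nearly throughout.

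Of the simple epithelial keratins, Krt8 and Krt18, the type II and type I chains of the first epithelial filaments, set the base level in most organs. Krt8 had its highest levels in the intestine, with 5429 TPM in cecum, 3378 TPM in rectum and 2518 TPM in ileum. Krt18 was highest in bladder with 1456 TPM, followed by 856 TPM in the eye library labelled RPE, where simple keratins were 95.85% of the keratin TPM. In 32 libraries both genes reached 10 TPM, and the ratio of Krt8 to Krt18 TPM ranged from 0.221 in pancreas T173F to 29.3 in cecum. The 7 intestinal libraries had ratios of 4.89 to 29.3 with a median of 10.5, whereas the other 25 had ratios of 0.221 to 2.84 with a median of 0.700. The ranges did not overlap. Krt19 and Krt20 are further type I partners of Krt8. Set against the sum of Krt18, Krt19 and Krt20, Krt8 had a ratio of 0.375 to 0.817 in the intestinal libraries, against 0.0234 to 0.884 in the other 25.

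Krt20, a type I keratin of differentiated intestinal and urothelial cells, had 11688 TPM in cecum T173F, 3119.9 and 1046 TPM in the duodenum libraries of T426 and T3F, 2271 TPM in ileum and 2259 TPM in jejunum. Colon and rectum were lower, with 709 and 683 TPM. Outside the intestine only bladder with 856 TPM and glandular stomach with 301 TPM exceeded 100 TPM. Krt7, the type II keratin of urothelium and many ducts, had its 3 highest levels in the urinary tract, with 492 TPM in bladder, 414 TPM in renal pelvis T426 and 276 TPM in renal pelvis T173F. Bladder had the highest sum of 5 urothelial genes with 16202 TPM, and 91.6% of its keratin TPM came from simple keratins. That sum was not confined to the urinary tract, with 9140 TPM in glandular stomach and 3097 TPM in cornea.

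The 3 stratified sites differed in their leading keratins. In cornea, Krt12, the type I keratin of corneal epithelium, had 31653 TPM, and Krt5, the basal type II keratin, had 29501 TPM. Krt15, a basal type I keratin, followed with 15224 TPM and Krt6a, a type II keratin induced in wounded or fast-renewing epithelium, with 8002 TPM. Basal keratins made up 51.5% and Krt12 34.4% of the corneal keratin TPM, and the corneal enzyme Aldh3a1 had 15465 TPM there. In non-glandular stomach Krt1, the type II keratin of the suprabasal epidermis, led with 37391 TPM, followed by Krt13, a type I keratin of internal stratified epithelia, with 27048 TPM and by Krt10, the epidermal partner of Krt1, with 11526 TPM. In esophageal junction the internal pair led, with 34009 TPM of Krt13 and 11537 TPM of Krt4, beside 9311 TPM of Krt1. Krtdap, a protein of differentiated keratinocytes, had 55870 TPM in non-glandular stomach, 18234 TPM in esophageal junction and 0 TPM in cornea, in the order of Krt1, which had 0.485 TPM in cornea. Krt10 was likewise low in cornea at 32.8 TPM. The 3 keratinocyte genes, Krtdap among them, summed to 87603 TPM in non-glandular stomach, 25397 TPM in esophageal junction and 221 TPM in cornea. Cornea thus held other members of that list.

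**Figure D2:**
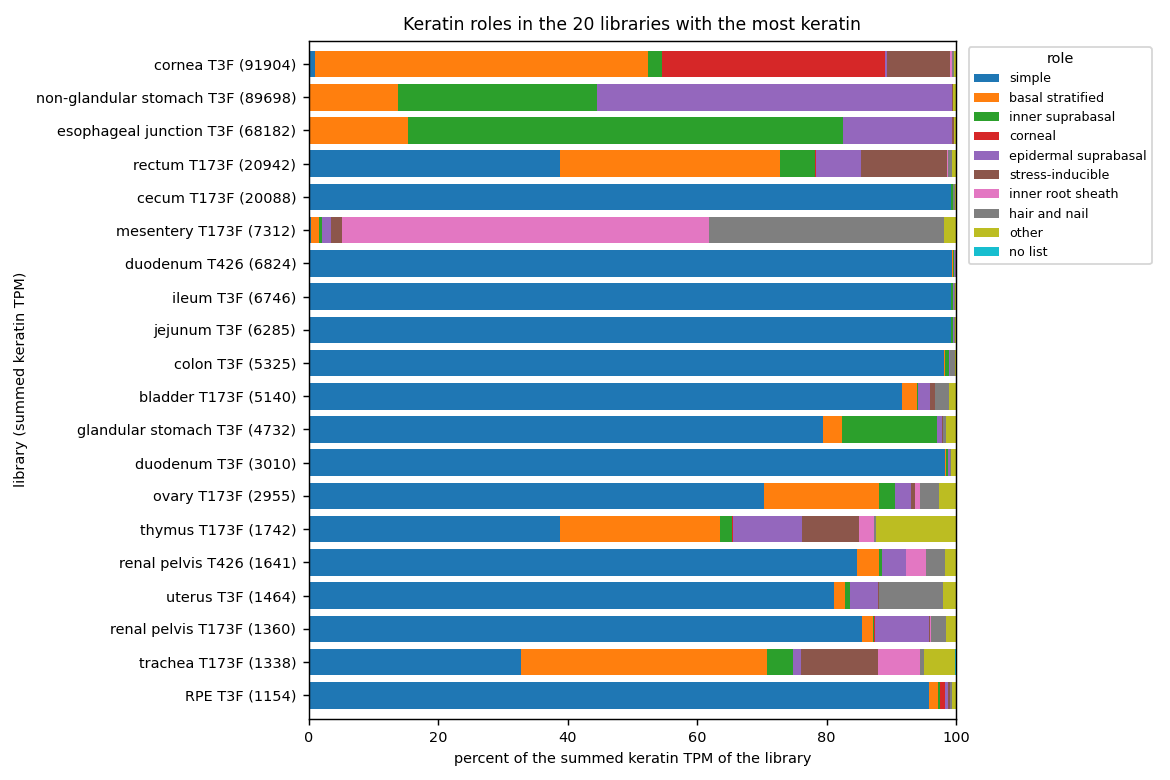
Share of the summed keratin TPM that each role list takes (bars, percent) in the 20 libraries with the most keratin, whose sums stand in brackets. Intestinal libraries other than rectum are at 98.2% or more simple keratins, the 3 stratified sites at 0.907% or less, and rectum T173F holds both kinds.

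Basal pairs did not keep a fixed ratio. Krt5 to Krt14, in TPM, was 11.4 in cornea and 0.133 in glandular stomach, with a median of 1.31 in the 11 libraries in which both reached 10 TPM. Krt4 to Krt13 ranged from 0.0139 in non-glandular stomach to 5.68 in cornea over 8 libraries, and Krt1 to Krt10 from 0.293 in rectum to 5.08 in esophageal junction over 5. These ratios use the authors' lengths, which were not checked.

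The stratified sites were compared with the 7 intestinal libraries by edgeR's quasi-likelihood test with Benjamini-Hochberg adjustment over all genes, and a call required an adjusted p under 0.05 with a log2 fold change of 1 or more in size. Of 29 keratins that passed the filter on low counts, 7 were higher in the stratified sites, beside 7.58% of all genes tested, and 4 were lower, beside 6.79%. The median log2 fold change over the 29 was 2.37, against 0.07 over all genes. The spread in this test is that between sites of a class, not between animals. With each animal as a term the count of higher keratins was 15, and the share of all genes in that refit was not computed. Only T3F had both kinds of site, so the fold changes of that refit compare libraries of T3F alone. Cecum and rectum (T173F) and duodenum T426 do not enter them.

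All 4 lower keratins were simple ones. Krt8 had 18.99, 9.14 and 19.2 TPM in cornea, esophageal junction and non-glandular stomach, against 895 to 5429 TPM in the intestine (log2 fold change -7.27 ± 0.85 SE, adjusted p = 0.000983, edgeR). Krt20 had 0.945, 3.34 and 2.34 TPM at the same 3 sites, against 683 to 11688 TPM in the intestine (log2 fold change -10.27 ± 1.61, adjusted p = 0.00347, edgeR). For both genes every stratified site lay below every intestinal library. Krt18 (log2 fold change -3.23 ± 0.49) and Krt7 (-3.90 ± 0.44) were lower without overlap too. Krt19, the fifth simple keratin, was not called, with 794 TPM in cornea beside 18.4 TPM in esophageal junction and 50.8 TPM in non-glandular stomach, against 853 to 3321 TPM in the intestine (adjusted p = 0.0977, edgeR).

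The smallest adjusted p went to Krt80, a type II keratin expressed in many differentiating epithelia. It had 275, 290.3 and 300.1 TPM in cornea, esophageal junction and non-glandular stomach, against 4.29 to 15.9 TPM in the intestine (log2 fold change 5.55 ± 0.32, adjusted p = 2.98e-05, edgeR). The 3 stratified levels lay close together and far from every intestinal library. Krt78, a type II keratin of stratified epithelia, had 485, 218 and 78.1 TPM there, against 0.227 to 6.58 TPM in the intestine (log2 fold change 7.99 ± 1.02, adjusted p = 0.00137, edgeR). Krt4 and Krt12 were also higher without overlap, with log2 fold changes of 8.57 ± 1.79 and 13.03 ± 2.30, and Krt12 rested mainly on cornea, since the other stratified sites had 5.82 and 7.55 TPM of Krt12 against at most 5.14 TPM in the intestine. Krt23 (5.25 ± 1.34), a type I keratin of digestive epithelia, was higher without overlap, while Krt13 (7.83 ± 1.83) overlapped through rectum and Krt90 (3.84 ± 0.94) through non-glandular stomach. Krt12 lost its call under limma-voom, Krt23 with animal as a term and without esophageal junction or non-glandular stomach, and Krt90 under limma-voom and without cornea, esophageal junction or jejunum.

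The basal keratins Krt5, Krt14 and Krt15 did not pass the test, with adjusted p of 0.284, 0.129 and 0.108 (edgeR), although their lowest stratified levels were 1394, 2588 and 1543 TPM. In the intestine they were high in rectum T173F alone. Krt5 had 3795 TPM in rectum, against 0 to 0.233 TPM in the other 6 intestinal libraries. Krt14 had 1735 TPM there, against 0 to 4.04 TPM, and Krt15 had 1601 TPM, against 0.721 to 4.12 TPM. Without rectum, 17 keratins were called higher in the stratified sites and again 4 lower, with no share of all genes computed for that refit. The 17 included all 3 basal ones, with log2 fold changes of 16.66 for Krt5, 11.33 for Krt14 and 11.16 for Krt15 (edgeR).

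**Figure D3:**
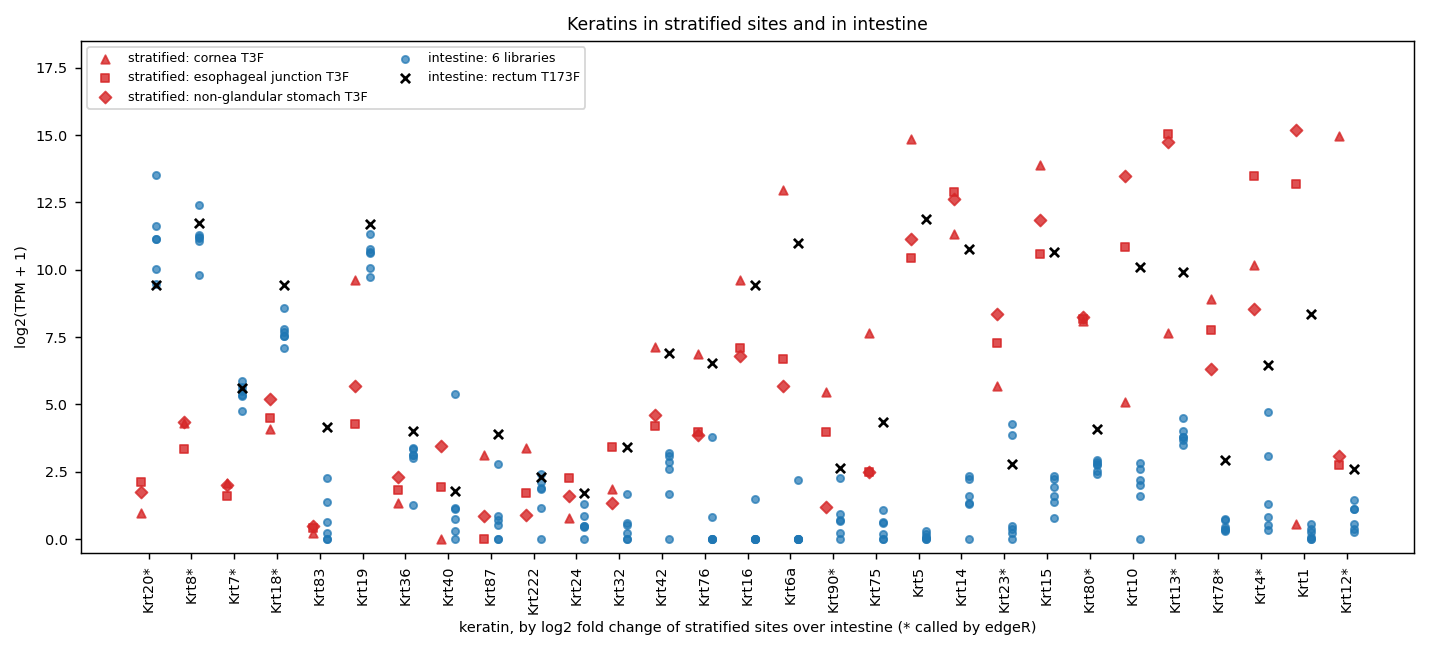
Level of the 29 tested keratins as log2(TPM + 1) in the 3 stratified sites (red, left of each position) and the 7 intestinal libraries (right, rectum as a black cross), ordered by log2 fold change, with an asterisk on the 11 called ones. Krt80 has its 3 stratified points almost on top of each other at 275 to 300.1 TPM, and rectum lies among the stratified points for Krt5 and Krt15 and just below them for Krt14.

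Rectum T173F thus carried both kinds of keratin. Simple keratins made up 38.8% of its keratin TPM, basal ones 34.1%, stress-inducible ones 13.4%, epidermal suprabasal ones 6.95% and those of inner stratified epithelia 5.45%, and by counts the simple keratins were 56.8%. Krt6a had 2031 TPM and Krt16, its type I partner in wounded skin, 688 TPM, against at most 3.59 and 1.80 TPM in the other intestinal libraries. Intestinal marker genes summed to 2421 TPM in rectum, 3 keratinocyte genes to 433 TPM (87603 TPM in non-glandular stomach), and the secretory airway gene Scgb1a1 had 4736 TPM there. Rectum was not alone in this, since the airway genes summed to 4738 TPM in rectum, 4022 TPM in colon and 3838 TPM in femur T3F. Colon also held 3755 TPM of acinar genes and 2012 TPM of gastric gland genes. How much tissue of each kind the rectum and colon biopsies held was not tested.

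Between the large intestine (cecum, colon, rectum) and the small intestine (4 libraries), 17 keratins were tested and 1 was higher, beside 8.22% of all genes. Krt4, a type II keratin of internal stratified epithelia, had 25.7, 7.59 and 87.3 TPM in cecum, colon and rectum, against 0.260 to 1.496 TPM in the small intestine (log2 fold change 4.72 ± 0.91, adjusted p = 0.0159, edgeR). The groups did not overlap, with or without rectum. The call was lost without rectum (3.69, adjusted p = 0.0567, edgeR) and under limma-voom (4.22, adjusted p = 0.0775). It was also lost with each animal as a term, where the log2 fold change was 2.13. That refit sets colon alone against the small intestinal libraries of T3F, since T173F had no small and T426 no large intestine. None of the 17 was lower, beside 7.15% of all genes, with 1 at an unadjusted p below 0.05 under edgeR, DESeq2 and limma-voom alike. Without cecum 8 keratins were called higher and Krt20 lower, without colon 4 were called higher, and without duodenum T3F Krt7 was called lower. Shares of all genes were not computed for these refits.

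Genes that anchor keratin filaments differed between the stratified and the intestinal sites as well. Of 16 tested genes of desmosomes, the junctions to which keratins attach, and of their plakin linkers, 9 were higher in the stratified sites and 2 lower, beside the 7.58% and 6.79% of all genes given above, with a median log2 fold change of 3.07. Those with the smallest adjusted p were Dsg1c (6.64 ± 0.82), Perp (3.10 ± 0.39), Ppl (4.77 ± 0.62) and Evpl (4.08 ± 0.58), whereas Dsg2 (-3.96 ± 0.56) and Pkp2 (-1.95 ± 0.53), desmosomal proteins also used in simple epithelia and heart, were lower. Of 5 hemidesmosome genes, which tie basal cells to the matrix, 0 were called, with a median log2 fold change of 0.48. Of 12 epithelial transcription factors, Grhl1 (5.37 ± 0.56) and Grhl3 (5.54 ± 1.57) were higher. Of 10 other intermediate filament genes 1, Nes (1.42 ± 0.38), was higher, a share near that of all genes.

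Over the 10 sites sampled in a pair of animals, 36 keratins passed the filter and 18 differed among sites in a joint edgeR test at an adjusted p below 0.05, beside 41.4% of all genes. The smallest adjusted p (edgeR) were 0.000667 for Krt90, 0.000993 for Krt20 and 0.0021 for Krt8. The others that passed were Krt1, Krt7, Krt9, Krt12, Krt15, Krt18, Krt19, Krt23, Krt28, Krt35, Krt73, Krt80, Krt83, Krt87 and Krt222. Of the 18, Krt90, Krt73 and Krt28 would not have passed the low-count filter without retina, nor Krt9 and Krt35 without hippocampus. A difference among sites was thus built into their tests, and their adjusted p are no separate evidence beyond their levels. The count was 13 to 26 when a library was left out. Over 27 alternatives, Krt28 lost its call in 21, Krt9 and Krt87 in 13 each and Krt23 in 10, and with animal as a term Krt15, Krt23 and Krt28 lost it. Contrasts of a site with the mean of the other 9 share most of their libraries, so their results are not independent. The 2 liver libraries and the 2 pancreas libraries differed in marker genes, and retina, hippocampus and femur T426 held germ cell genes. Acinar genes summed to 17190 TPM in sciatic nerve T426, 1536 TPM in sciatic nerve T3F and 4727 TPM in skeletal muscle T3F. Renal pelvis T426 held 12869 TPM of hepatocyte genes. The spread within sites in these tests includes such differences.

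In duodenum 5 keratins were higher than at the other 9 sites, beside 8.33% of all genes, and 4 of them were simple keratins. Krt20 had 3119.9 and 1046 TPM in the duodenum of T426 and T3F, against 0 to 23.9 TPM in the other 18 libraries with a median of 1.35 (log2 fold change 10.56 ± 1.06, adjusted p = 2.38e-05, edgeR). Krt8 had 2357 and 895 TPM, against 3.11 to 434 TPM elsewhere (5.60 ± 0.68), and Krt19 had 1082 and 853 TPM, against 0.299 to 769 TPM (5.88 ± 0.98). None of these 3 overlapped with the other sites, whose highest Krt8 and Krt19 stood in ovary T173F. Krt7 (3.47 ± 0.91) and Krt36, a hair keratin known from tongue and nail in the mouse (5.38 ± 1.22, with 9.09 and 1.38 TPM), overlapped with them, and Krt7 lost its call without either duodenum library or with animal as a term. Without duodenum T426, 3 calls remained. Among desmosome and plakin genes 7 of 14 were higher, led by Dsp (5.21 ± 0.50), Dsg2 (4.94 ± 0.55), Pkp1 (5.72 ± 0.80) and Dsc2 (4.70 ± 0.87), and 5 of 12 epithelial transcription factors were, led by Elf3 (5.07 ± 0.81).

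In renal pelvis 5 keratins were higher, beside 5.73% of all genes, all of type II. Krt7 had 276 and 414 TPM in T173F and T426, against 0 to 113 TPM in the other 18 libraries with a median of 0.942 (log2 fold change 6.13 ± 0.83, adjusted p = 0.000374, edgeR). Krt80 had 86.9 and 54.2 TPM, against 0 to 138 TPM (4.89 ± 0.99), where the highest other library was the one labelled liver T3F. Krt83, a type II hair keratin, had 13.5 and 44.2 TPM, against 0 to 17.2 TPM (5.85 ± 0.97). Krt75 (6.12 ± 1.20), with 0.686 and 47.7 TPM, and Krt87 (4.13 ± 0.93), with 11.5 and 5.68 TPM, completed the 5, and only Krt7 did not overlap with the other sites. Psca, expressed in urothelium, had 1801 and 1254 TPM here, and Upk2, the umbrella cell protein uroplakin, had 13.7 and 7.15 TPM, against 4419.7 TPM in bladder. Renal pelvis T426 also held 12869 TPM of hepatocyte genes, and without it Krt7 (5.74) and Krt80 (5.16) were called but Krt75, Krt83 and Krt87 were not. Without renal pelvis T173F the calls were Krt7, Krt75 and Krt83, and with animal as a term they were Krt7, Krt80 and Krt83.

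In ovary 4 keratins of stratified epithelia were higher, beside 3.57% of all genes. Krt15 had 412 and 9.84 TPM in T173F and T3F, against 0 to 36.0 TPM elsewhere (log2 fold change 6.84 ± 1.11, adjusted p = 0.00355, edgeR). Krt1 had 21.0 and 79.9 TPM, against 0 to 8.90 TPM (5.77 ± 0.97), Krt13 had 43.2 and 60.9 TPM, against 0 to 11.8 TPM (4.15 ± 0.91), and Krt78 had 10.2 and 2.31 TPM, against 0 to 1.48 TPM (4.23 ± 1.05). Krt15 overlapped with the other sites and the other 3 did not. The animals differed strongly, also in simple keratins, with 793 TPM of Krt18 in T173F and 19.7 TPM in T3F. Keratinocyte genes summed to 51.6 and 202 TPM in these libraries and airway genes, which include the ciliary genes Foxj1 and Tekt1, to 299.9 and 7.83 TPM. The part of other epithelia in these biopsies was not tested. Without ovary T173F only Krt1 was called, and without ovary T3F only Krt15 of the 4. With animal as a term Krt1 and Krt13 were called, and without liver T3F all 4 were, together with Krt5, Krt19 and Krt33b. Krt78 lost its call in 15 of 27 alternatives, DESeq2 and DESeq2 size factors among them.

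Retina and hippocampus are nervous tissue without keratinised epithelium, and their comparisons were added after the values were seen. In retina 7 of 36 keratins were higher, a share near the 17.0% of all genes, and Krt7 was lower, beside 4.12%. Krt90, a type II member present in rodents, had 184, 199.9 and 125 TPM in the left and right retina of T3F and the retina of T426, from 1009, 996 and 89.8 counts. In the other 18 libraries it had 0 to 0.613 TPM (log2 fold change 10.06 ± 0.80, adjusted p = 1.32e-05, edgeR, with both retinas of T3F summed). None of those 18 held more than 2 counts of it, so Krt90 passed the low-count filter only through retina. The comparison was also chosen after the values were seen, so the adjusted p is no separate evidence beyond these levels. Cornea with 43.3 TPM and optic nerve with 28.7 TPM were the next libraries in the whole series.

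Krt73 and Krt28, type II and type I keratins of the inner root sheath of the hair, were also higher in retina. Krt73 had 16.8, 17.8 and 6.30 TPM in the 3 retina libraries, from 1304, 1262 and 62.7 counts, against 0 to 0.317 TPM at the other 9 sites (9.71 ± 1.13), while mesentery T173F, outside this comparison, had 8.01 TPM. Krt28 had 16.1, 15.4 and 6.95 TPM, against 0 to 1.10 TPM (7.68 ± 1.21). No library of the other 9 sites held more than 8 counts of Krt73 or 7 counts of Krt28. Both genes passed the low-count filter only through retina. Neither their fold changes nor their calls, here or in refits, are thus separate evidence beyond these levels. Krt2, an epidermal type II keratin, had 3.28, 2.76 and 1.61 TPM, from 51.9, 39.8 and 3.27 counts. It reached 1 TPM in no other library of the series and passed the low-count filter only through retina, with the same limit. Krt222, a keratin-like type I gene, had 49.5, 51.3 and 25.6 TPM in the retinas (3.82 ± 0.67) and had its 8 highest levels in nervous tissue, with 72.2 TPM in cerebellum as its maximum. Without retina T426 the log2 fold changes were 10.11 for Krt90, 10.13 for Krt73, 7.997 for Krt28, 6.82 for Krt2 and 4.02 for Krt222, all still called, whereas Krt32 and Krt88 were not. Krt7 had 0.115, 0.151 and 0 TPM in the retinas, against 0.0842 to 414 TPM elsewhere, and lost its call without either animal.

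In hippocampus 7 keratins were higher, beside 12.9% of all genes, and Krt18 was lower, beside 2.06%. Krt9, the type I keratin of palm and sole epidermis, had 43.6 and 50.4 TPM in T3F and T426, from 52 and 13 counts, against 0 to 3.36 TPM at the other 9 sites (log2 fold change 7.98 ± 1.02, adjusted p = 0.00253, edgeR). Krt9 passed the low-count filter only through hippocampus, so its adjusted p is no separate evidence beyond these levels either. The neighbouring caudal and rostral cortex had 128 and 113 TPM of Krt9, and medulla oblongata with 5.36 TPM was the next library. The 4 highest libraries were thus those of cortex and hippocampus, and thalamus and hypothalamus had 0 TPM. Hair keratins made up 5 of the 7 calls, namely Krt35 (6.72 ± 0.99), Krt87 (5.31 ± 0.92), Krt36 (5.41 ± 1.13), Krt83 (5.19 ± 0.99) and Krt32 (5.72 ± 1.54), at 6.37 to 29.3 TPM, and Krt222 (3.85 ± 0.67) was the other. Krt35, with 90 and 29 counts in T3F and T426, would not have passed the low-count filter without hippocampus either. Relative to depth, only pancreas T173F, with 27 counts, reached the cutoff at the other 9 sites. The calls of Krt35, under DESeq2 too, are thus no separate evidence beyond its levels. Krt9 and Krt87 did not overlap with the other sites. Krt18 had 2.54 and 6.72 TPM, against 3.17 to 793 TPM, and lost its call without either hippocampus library. DESeq2 called only 2 of the 7, Krt35 and Krt222, and gave no adjusted p for 2 others. Krt32 lost its call in 10 of 27 alternatives, among them limma-voom and the absence of either hippocampus library, and Krt36 lost it without hippocampus T426. Counts were low for some of them, such as 32.2 and 6.21 counts of Krt87, and higher for Krt222, with 615 and 121.

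**Figure D4:**
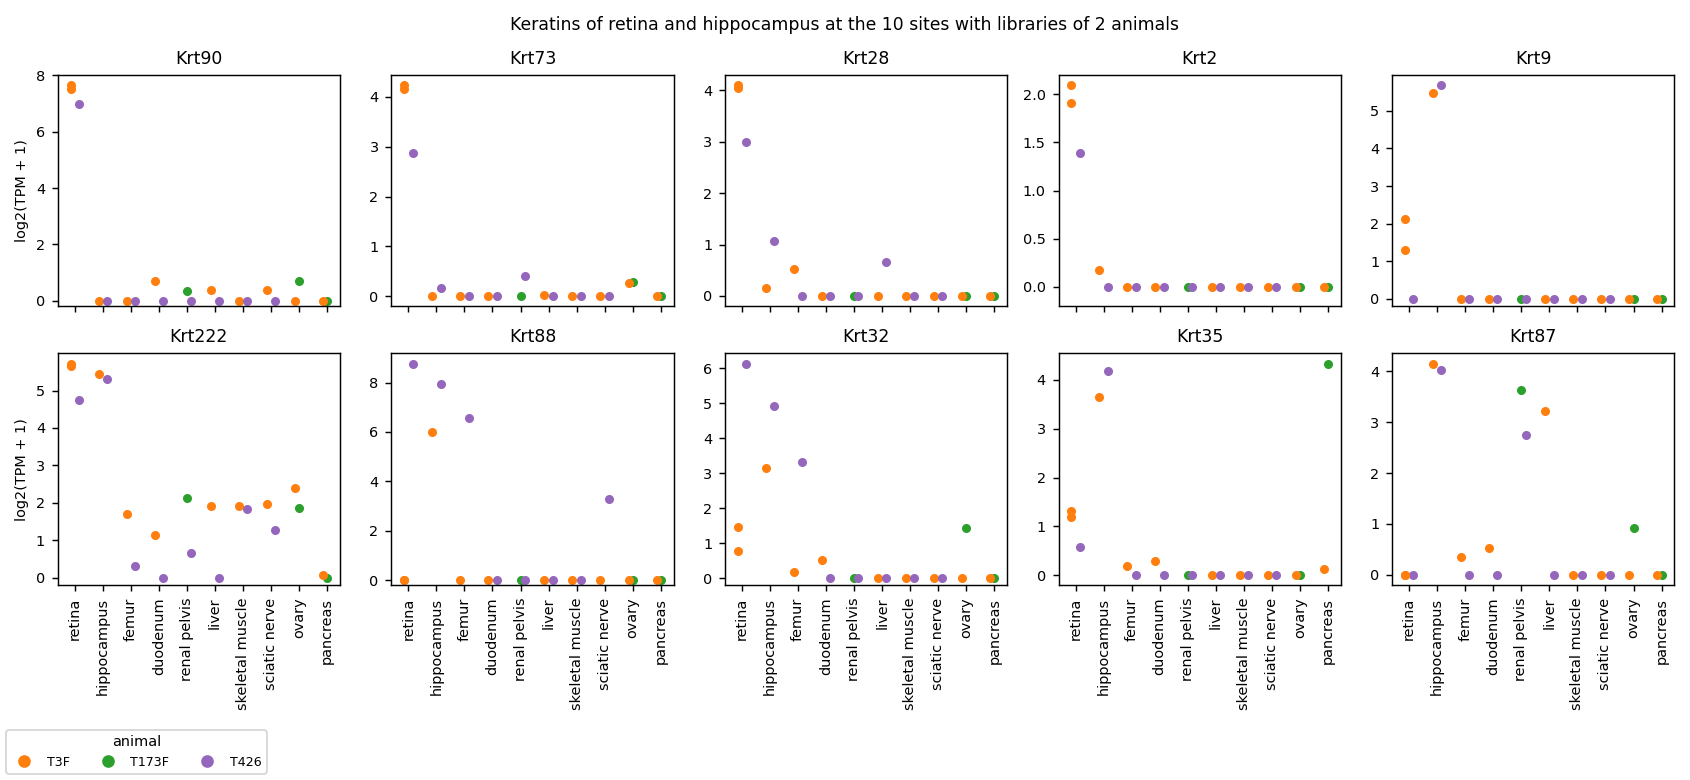
Level of 10 keratins as log2(TPM + 1) at the 10 sites with libraries of a pair of animals, each point a library coloured by animal. Krt90, Krt73, Krt28 and Krt2 are high in retina, Krt9 in hippocampus and Krt222 in both, in both animals, while Krt88 and Krt32 are highest in libraries of T426.

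The highest levels of Krt88 and Krt32 stood in libraries that held germ cell genes. Krt88 had 982 TPM in testis (68 counts), 428 TPM in retina T426 (68.9 counts), 244 TPM in hippocampus T426 (32.2 counts) and 94.8 TPM in femur T426, the same 4 libraries in the same order as the summed germ cell genes. In the retinas of T3F it had 0 TPM. Krt32, a type I hair keratin, had 99.8 TPM in testis, 68.6 TPM in retina T426 and 29.3 TPM in hippocampus T426. It had 1.77 and 0.696 TPM in the retinas of T3F. Below these 3 highest libraries the order differed. Femur T426 had 8.93 TPM of Krt32, less than mesentery (12.98 TPM) and esophageal junction (9.84 TPM), where germ cell genes summed to 0 TPM. Sciatic nerve T426, with 677 TPM of germ cell genes, had 0 TPM of Krt32 and 8.61 TPM of Krt88. Krt88 made up 88.4% of the keratin TPM of testis. Hippocampus T3F, with 5.78 TPM of germ cell genes, still had 62.8 TPM of Krt88 from 39.8 counts, and caudal cortex 49.5 TPM.

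Hair follicle keratins were concentrated in mesentery T173F, a library filed under adipose tissue. Of 9 keratins of the inner root sheath and companion layer, which surround the growing hair, 5 had their highest level of the series there and 7 reached 10 TPM. Krt27, a type I inner root sheath keratin, had 2189 TPM from 356 counts, against at most 4.88 TPM in the other 58 libraries. Krt71, a type II keratin of the same layers, had 1013 TPM from 973 counts, against at most 43.7 TPM, and Krt25, the type I keratin mutated in some curly-haired mice, had 568.2 TPM from 1082 counts, against at most 226 TPM. Krt26 with 110.2 TPM from 25 counts and Krt72 with 152 TPM from 143 counts completed the 5.

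Of 15 hair and nail keratins, which form the shaft itself, 7 were highest in mesentery and 10 reached 10 TPM. Krt86 had 966 TPM from 146 counts, against at most 11.5 TPM elsewhere, Krt81 541 TPM from 122 counts, against at most 13.7 TPM, and Krt34 429 TPM from 121 counts, against at most 25.4 TPM. Krt31 had 489 TPM from 154 counts, against at most 177 TPM. Krt36, Krt39, Krt40 and Krt84 were listed at 0 in this library. The inner root sheath set made up 56.7% of its keratin TPM and 56.8% of its keratin counts, and the hair and nail set 36.4% and 17.2%. All keratins together were 0.731% of the TPM but 0.0698% of the counts of the library, because of the short references.

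The keratin-associated proteins, which cross-link keratins in the hair shaft, stood highest there too. Of 17 such genes in the table, 10 were highest in mesentery. The sum over the 17 was 8632 TPM there, against 4390 TPM in jejunum as the next library and a median of 3.08 TPM over all libraries. Almost all of the jejunum sum was Krtap1-4 with 4389 TPM, a gene at 0 TPM in mesentery and 1250 TPM in duodenum T426. In mesentery Krtap3-2 had 2334 TPM and Krtap3-1 had 1907 TPM. Keratins of the epidermis were present as well. Krt5 had 35.4 TPM from 197 counts and Krt1 20.6 TPM from 89 counts, and basal and epidermal suprabasal keratins were 7.20% and 4.44% of the keratin counts. The 3 keratinocyte genes summed to 55.1 TPM with Flg at 0. There is a single mesentery library, so these levels have no replicate, and whether hair or skin reached the biopsy was not tested.

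**Figure D5:**
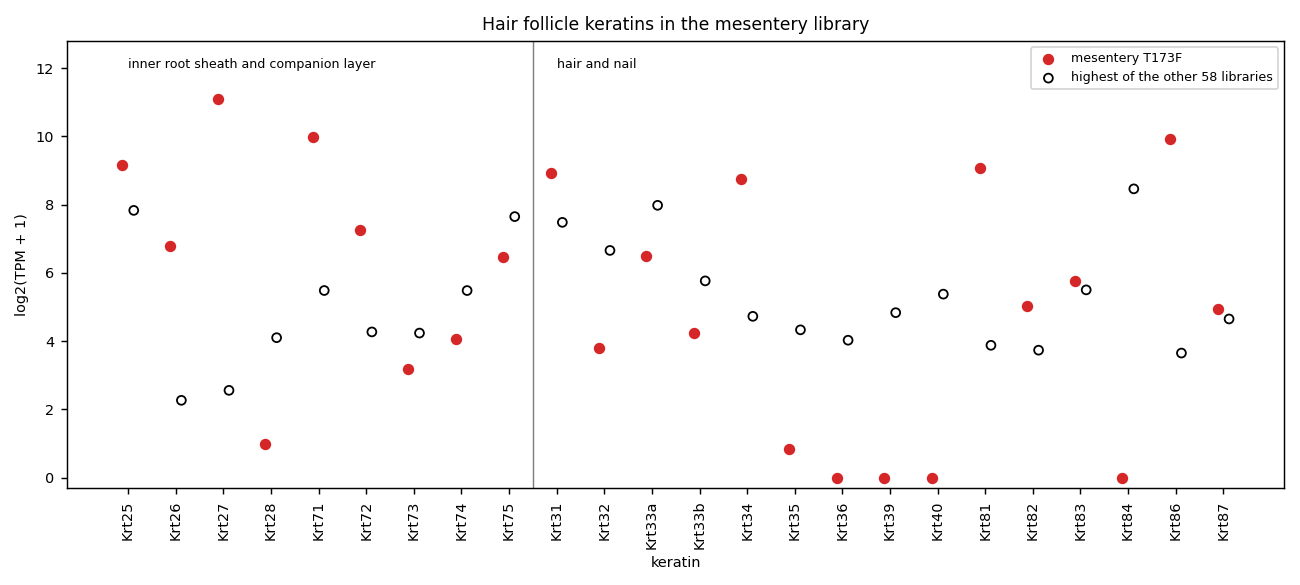
Level of the 9 inner root sheath and companion layer keratins and the 15 hair and nail keratins as log2(TPM + 1) in mesentery T173F (red) and in the highest of the other 58 libraries (open circles). Krt26, Krt27, Krt71, Krt86, Krt81 and Krt34 stand at least 16.9 times above every other library, whereas Krt36, Krt39, Krt40 and Krt84 are at 0 in mesentery.

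Some keratins stood high in few libraries, among them libraries that go against their labels. Krt25 had 226 TPM in kidney cortex from 1021 counts, against 3.80 TPM in kidney medulla, while Krt27 and Krt71 had only 4.88 and 5.71 TPM in kidney cortex. Krt84, a type II nail and tongue keratin, had 351 TPM in pancreas T173F from 36 counts, and pancreas T3F had 0 TPM. Outside cornea, Krt12 was highest at 64.6 TPM in the T3F library labelled liver and 20.02 TPM in optic nerve. That library labelled liver, which held alveolar and airway genes, also had 52.2 TPM of Krt5, 113 TPM of Krt7, 224 TPM of Krt19 and 138 TPM of Krt80. Liver T426, which held hepatocyte genes, had 0, 0.680, 0.368 and 0.342 TPM of these 4. Krt23 ran the other way, with 98.4 TPM of Krt23 in liver T426 and 89.96 TPM in the library labelled lung T3F, against 0.632 TPM in that liver library. The same 2 libraries with hepatocyte genes had 0.368 and 0.516 TPM of Krt19.

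Several other organs carried the basal pair at moderate levels. Thymus, whose epithelium shares keratins with skin, had 308 TPM of Krt5, 96.2 TPM of Krt14 and 1115 TPM of 3 thymic epithelial genes. It also had 121 TPM of Krt77 from 64 counts and 207 TPM of Krt42 from 145 counts, the highest levels of both in the series. Trachea had 326 TPM of Krt15, 115 TPM of Krt5 and 137 TPM of Krt17, a type I keratin of basal and appendage cells. The Harderian gland of the orbit had 132 TPM of Krt14 and 110.0 TPM of Krt5. Uterus had the highest Krt33b of the series with 53.3 TPM from 248 counts, a type I hair keratin that reached 33.1 TPM in ovary T173F. Cerebellum alone among brain libraries had Krt6a above 1 TPM, with 20.7 TPM.

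Position in the genome was read from the RefSeq gene table of the species, assembly mArvNil1.pat.X, which holds 31 of the 54 symbols on 2 chromosomes. A first chromosome held 17 type I keratins and the other 13 type II keratins together with Krt18, which lies beside Krt8. Among neighbouring keratins, 19 pairs had no other protein-coding gene between them, and neighbours often differed in where they were expressed. The run of Krt23, Krt20, Krt12, Krt10, Krt28, Krt27 and Krt26 had its highest levels in non-glandular stomach, cecum, cornea, non-glandular stomach, retina, mesentery and mesentery. Krt6a, Krt5 and Krt71 adjoin as well, and they were highest in cornea, cornea and mesentery.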

How the data were processed

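RNA-seq of 59 libraries was analysed from 2 tables of the whole series. The authors deposited expected counts (RSEM's estimate of the counts of each gene) and TPM for the same genes. RSEM, with no version, and Bowtie 0.12.8 are named per the submitters' processing notes, while reference assembly and strand setting were not given in the sources used here. Columns were matched to libraries by title, with 0 unused.

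Levels are the deposited TPM. For tests, the deposited expected counts were rounded and fitted with edgeR 4.0.16 in R 4.3.3 (quasi-likelihood F test, TMM scaling, filterByExpr, Benjamini-Hochberg adjustment over all genes tested). Fits were tested on simulated counts first. Both retinas of T3F were summed, since they come from the same animal. Calls required an adjusted p under 0.05 and a log2 fold change of 1 or more in size, and in the joint test the adjusted p alone. SE are the log2 fold change over the square root of F. Alternatives were DESeq2 1.42.0, limma-voom with limma 3.58.1, DESeq2 size factors in edgeR, no filter on low counts, animal as a replicate block, each library left out in turn, and sets without libraries that stand apart: a reduced set without liver T3F and pancreas T173F, and a strict set that also lacks 5 libraries of T426 (femur, hippocampus, renal pelvis, retina, sciatic nerve). Libraries of the same number come from the same animal per the labels, so over the 10 sites the block pairs them by design. In the other comparisons only T3F had libraries on both sides. There the block leaves a contrast within T3F, with colon as the only large intestinal library. Nothing says that libraries of a site were prepared apart, so p-values measure the spread between these samples. PCR reads carry no molecular identifiers, and counting error is only part of the spread.

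The members and all gene lists were chosen with earlier results of these data known. Any keratin could be named; of each other list, up to 4 called genes with the smallest adjusted p in a comparison, and any marker gene to check a label. No sequences are printed.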

Additional observations from a re-analysis of the deposited data

Results flagged for a closer look

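In groups of 4 to 10 libraries, 61 keratin levels were tested for a library that stands apart by its gap to the nearest other library relative to the whole range (Dixon's 95% critical value, on log2(TPM + 1)), and 25 passed. Chance alone passes about 1 in 20 groups, but 7 of the 25 passed by construction, because every other library of the group was at 0 (Krt6b, Krt33a, Krt39, Krt79 and Krt88 in rectum, Krt16 and Krt81 in the small intestine). Of the 25, 18 were high levels in rectum T173F among the 7 intestinal libraries.

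In rectum T173F the basal and stress-inducible keratins stood apart with 3795 TPM of Krt5, 1735 TPM of Krt14, 1601 TPM of Krt15, 2031 TPM of Krt6a, 72.1 TPM of Krt6b, 688 TPM of Krt16 and 12.802 TPM of Krt17. Suprabasal keratins did so with 1109.96 TPM of Krt10, 954 TPM of Krt13, 325 TPM of Krt1, 15.9 TPM of Krt80 and 6.58 TPM of Krt78. Krt79 did so with 1.78 TPM from 3 counts. Hair and root sheath keratins did so with 21.9 TPM of Krt39 (6 counts) and 19.3 TPM of Krt75 (35.5 counts). Krt81 (13.7 TPM, 3.56 counts), Krt33a (3.80 TPM, 5 counts) and Krt88 (2.92 TPM, 1 count) also stood apart. In the other 6 libraries the highest of these 18 was Krt13 with 21.6 TPM.

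Other libraries stood apart in 7 values. Among the 7 intestinal libraries, duodenum T3F was low for Krt36 with 1.38 TPM and cecum T173F high for Krt40 with 40.5 TPM. Among the 4 small intestinal libraries, duodenum T3F was low for Krt8 with 895 TPM and high for Krt23 with 13.7 TPM. Duodenum T426 was high for Krt16 with 1.80 TPM and for Krt25 with 1.97 TPM, each from 1 count. Jejunum was high for Krt81 with 1.32 TPM, also from 1 count. No cause was tested for these values.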

How the results depend on the processing

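The counts of called keratins depended on single libraries and on the tool. Shares of all genes called were computed for the main edgeR fits only, so the counts of the alternatives have none beside them. Leaving out a library gave 13 to 26 keratins differing among the 10 sites (18 with all), 3 to 6 higher in duodenum (5), 2 to 6 in renal pelvis (5), 1 to 7 in ovary (4), 5 to 8 in retina (7), 5 to 9 in hippocampus (7), 6 to 17 higher (7) and 4 to 5 lower (4) in stratified sites than in intestine, and 0 to 8 higher (1) and 0 to 1 lower (0) in large than in small intestine. A lone library of a site is then assumed to vary like the other sites. Among the 10 sites, 26 was reached without pancreas T3F.

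With animal as a replicate block, which pairs libraries of an animal over the 10 sites, the counts were 17 among the 10 sites, 4 in duodenum, 3 in renal pelvis, 2 in ovary, 7 in retina and 9 in hippocampus. In stratified sites 15 were higher and 4 lower, from libraries of T3F alone. For large against small intestine the block leaves colon alone against libraries of T3F, so no count is given. DESeq2 gave 2 in renal pelvis, 2 in ovary, 3 in retina and 2 in hippocampus, and it gave no adjusted p for 5 to 10 of the 36 keratins in each site contrast. Limma-voom gave 3 in renal pelvis and 0 in large intestine. With no filter, 12 were higher in stratified sites and 2 in large intestine. The strict set gave 3 in renal pelvis and 4 in retina, and the reduced set 7 in ovary. DESeq2 size factors changed no count by over 1.5 times and moved the median log2 fold change of all genes from -0.13 to -0.27 in duodenum, from -0.01 to -0.17 in renal pelvis, from 0.14 to 0.26 in retina and from -0.01 to 0.11 in hippocampus.

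Directions turned for Krt20 in large intestine, at -2.62 without cecum, and for Krt88 in retina, at -1.71 under limma-voom, -0.93 in the strict set and -2.49 without retina T426, the one retina library with counts of it (-2.49 to 8.71 over all libraries left out in turn). The other causes were not tested. A library held a median of 14 keratins at 1 TPM, 18 at 0.5 TPM and 8 at 5 TPM. With a pseudocount of 1, the median log2 level of keratins was 2.54 in stratified and 0.58 in intestinal libraries, against 2.29 and -0.74 with 0.1. Limits are sites with a single library, libraries that go against their labels, and keratins with few counts on short references.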
